A study of Chlorella sorokiniana with 6 samples.

Results

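DESA1, SCD and FAD2 are fatty acid desaturases of the green alga *Chlorella sorokiniana*, represented by the transcripts g9912, g6951 and g6334. They were taken by transcript ID, 3 of the 18310 transcripts in the deposited count table, and are described here beside the other transcripts assembled with them. The data are RNA-seq counts of 6 cultures in Bold's Basal Medium, 3 kept for 7 days in normal and 3 in mixotrophic conditions. Normal cultures received about 10 µmol photons of continuous light and 0% glucose, and mixotrophic cultures 100 µmol photons and 2% glucose, so light and glucose changed together and their effects cannot be told apart. In such bulk RNA, more transcript per cell and more cells that carry it cannot be told apart either. The sample labels number the strain upwards from NIES-2168 to NIES-2173, 1 number per sample, whereas the study's methods name NIES-2168 alone. A library is named below by its condition and its replicate number.

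Fatty acids leave the plastid's fatty acid synthase saturated, and desaturases then remove hydrogen from set positions of the chain to make double bonds. Stearoyl-ACP desaturase is a soluble enzyme of the plastid stroma that places the first double bond into stearate while it is still bound to the acyl carrier protein (ACP), which gives oleate, and it takes its electrons from ferredoxin. Stearoyl-CoA desaturase (SCD) makes the same kind of bond in acyl chains bound to coenzyme A in animals and fungi. FAD2, in land plants, is an enzyme of the endoplasmic reticulum that makes linoleate from oleate in membrane lipids with electrons from cytochrome b5. FAD6 does the same in the plastid with ferredoxin, and omega-3 desaturases such as FAD8 place the next bond.

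The names of the transcripts were first set beside their annotation in the deposited file. The transcript g9912 carries the MapMan BIN (a plant pathway class) for ACP desaturase, as do 5 other transcripts, and g6334 that for omega-6 desaturase. The descriptions of both are not given in the copy used here, and a sister transcript of g9912, g9907, matches the stearoyl-ACP desaturase of castor bean. The transcript g6951 carries the general BIN for desaturases, and its best described match is FAD5 of *Arabidopsis thaliana*, a plastid enzyme that uses ferredoxin. It is called SCD here after the study, without a claim on the lipid its enzyme acts on. Nucleotide and protein sequences of the transcripts were not analysed here.

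Total counts were 2535461 to 4444858 per library. Levels are given as CPM, counts per 1000000 of a library total scaled by edgeR's TMM method. They are not corrected for transcript length, so that they can be compared between libraries but not between transcripts. Light-harvesting proteins of the photosystems, as markers of a green alga, held 0.869% to 1.1% of the counts in normal libraries and at least 1.53% in each mixotrophic one. Replicate 1 of both conditions stood apart: 882 transcripts were at least 2-fold lower there, in both conditions, than in each of the other 4 libraries. Phenylpropanoid genes, a pathway best known from land plants, held 0.0316% of the counts in normal and 0.0633% in mixotrophic replicate 1, against 0.118% to 0.147% in the other libraries. None of the 3 desaturases or of the transcripts assembled with them was among the 882. The common coefficient of variation was 35.5% over all 6 libraries, 16.1% without normal replicate 1 and 4.64% over replicates 2 and 3. All 6 libraries were fitted, and values from replicates 2 and 3 alone are given where they change a call. The paper lists read totals for 2 replicates per condition, while its methods state triplicates.

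Each of the 3 desaturases was higher in mixotrophic than in normal cultures by edgeR's quasi-likelihood test, in which 13.3% of 12318 tested transcripts were higher and 15.2% lower at an adjusted p under 0.05. The DESA1 contig g9912 rose about 18.2-fold in mean level, SCD 1.79-fold and FAD2 1.86-fold. In all 3 the mixotrophic libraries lay above every normal library, as they did for 24.4% of the tested transcripts, while they lay below in 24.2%. All 3 were also called with the replicate number as a block, where 9.97% of transcripts were higher and 10.5% lower, by DESeq2, where 14.7% were higher and 17% lower, and over replicates 2 and 3 alone, where 28.6% were higher and 29% lower. The study had already reported DESA1, SCD and FAD2 as upregulated in samples of this series, so these calls are no independent evidence of direction. It also measured DESA1, though not SCD or FAD2, by quantitative real-time PCR, and reported a high correlation with RNA-seq over the genes so measured. Which of the DESA1 contigs its primers amplify was not examined here.

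DESA1 (g9912), the stearoyl-ACP desaturase, held 2.49, 7.1 and 7.55 CPM in normal replicates 1, 2 and 3. In mixotrophic replicates 1, 2 and 3 it held 114, 95 and 103 CPM. The transcript was thus close to the lower limit of counting in normal cultures, with 9, 17 and 23 reads, and well covered in mixotrophic ones, with 528, 386 and 367 reads. Its log2 fold change was 4.21 (standard error, SE, 0.39, with an adjusted p of 0.00171 in edgeR), which ranked it 12 among the 12318 transcripts ordered from the largest rise. Normal replicate 1 was the lowest library, and the ratio of mixotrophic to normal level was 45.8 for replicate 1 and 13.4 and 13.6 for replicates 2 and 3. Without that library the log2 fold change was 3.78 (edgeR adjusted p = 2.35e-06), and it was 3.72 over replicates 2 and 3 alone.

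**Figure D1:**
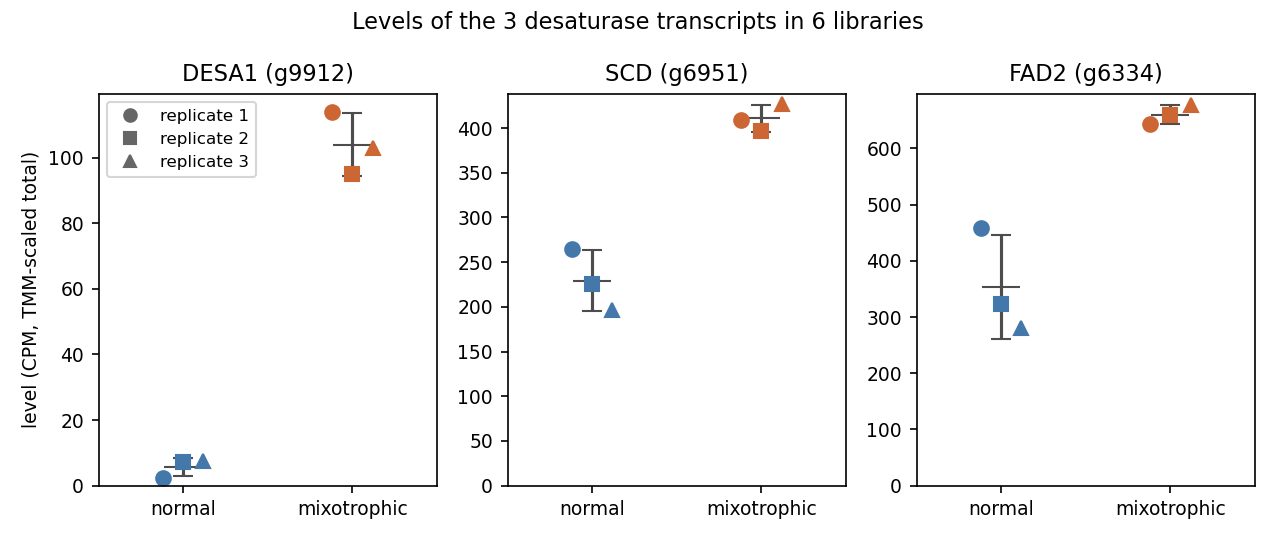
Levels of the 3 desaturase transcripts (y axis, CPM of the TMM-scaled total, from 0) by condition (x axis). Points are single libraries, with a symbol per replicate number, and the bar is the mean ± SD of 3 libraries. The 3 mixotrophic libraries lie above the 3 normal ones in each panel: 95 to 114 against 2.49 to 7.55 CPM for DESA1, 397 to 427 against 197 to 265 for SCD, and 644 to 677 against 280 to 458 for FAD2.

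DESA1 is 1 of 11 transcripts in its Trinity component, a group of contigs that the assembler joined through shared sequence. Within it, 6 transcripts carry the ACP desaturase BIN and come from 1 Trinity gene, as contigs 1 to 6 of that gene. The transcripts g9909, g9911, g9913 and g9915 are second predictions on the contigs of g9908, g9910, g9912 and g9914 and had no count in any library. The remaining transcript, g9906, belongs to another Trinity gene and has no described match. How reads that match several of these contigs were counted is not given in the sources used here beyond default settings, so values of single contigs are uncertain.

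The stearoyl-ACP desaturase transcripts are described in 2 sets, which were formed after their values were seen. The pair g9908 and g9912 was scarce in normal and abundant in mixotrophic cultures. The level of g9908 was 2.76, 10.9 and 9.53 CPM in normal and 121, 111 and 117 CPM in mixotrophic replicates 1, 2 and 3, with a log2 fold change of 3.95 ± 0.46 (SE, edgeR adjusted p = 0.0031). The 2 transcripts kept nearly the same proportion to each other, with g9912 at 39.5% to 47.4% of their summed counts in normal and 46.1% to 48.4% in mixotrophic libraries. Whether they share reads was not tested, so they are not treated as independent measurements.

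The other set, g9907, g9914 and g9916, did not pass the test in either direction and overlapped between the conditions. The most counted of them, g9907, had 94.5, 157 and 144 CPM in normal and 126, 139 and 137 CPM in mixotrophic replicates 1, 2 and 3 (0.03 ± 0.20 on the log2 scale, SE, edgeR adjusted p = 0.958). For g9914 the levels were 46.4, 92.7 and 79.8 CPM in normal and 64.8, 71.4 and 67.4 CPM in mixotrophic libraries, and for g9916 they were 20.7 to 32.8 CPM and 27.3 to 33.2 CPM. Normal replicate 1 was the lowest of the 6 libraries in all 3 of these transcripts. Values of -0.10 and 0.09 on the log2 scale were fitted for g9914 and g9916 (adjusted p = 0.838 and 0.806 in edgeR). Without normal replicate 1, g9907 and g9914 passed the test as lower in mixotrophic cultures (-0.20 and -0.38, edgeR adjusted p = 0.0469 and 0.00982) and g9916 was at -0.13. The sixth transcript, g9910, had 0 to 3 reads per library and was not tested.

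**Figure D2:**
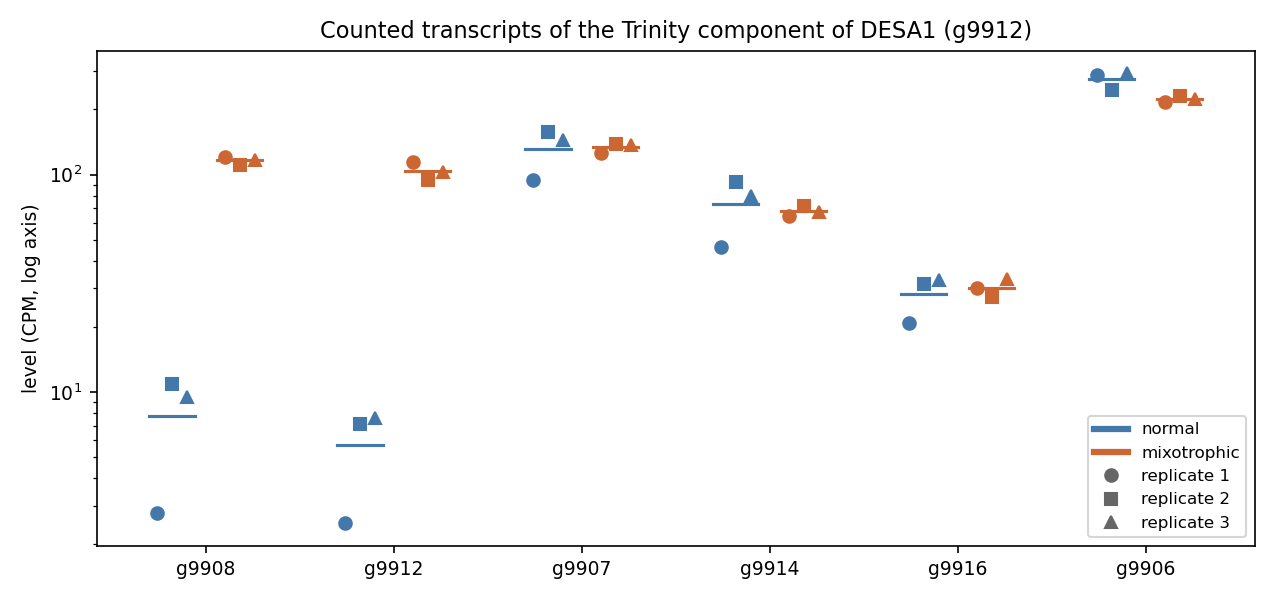
Levels (y axis, CPM, log axis) of the transcripts of the DESA1 component with enough counts to be tested (x axis), in normal and mixotrophic libraries, with a symbol per replicate number and a line at the mean of each condition. The transcripts g9908 and g9912 lie between 2.49 and 10.9 CPM in normal and between 95 and 121 CPM in mixotrophic libraries, whereas the other 4 lie between 20.7 and 293 CPM in both conditions.

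The make-up of the stearoyl-ACP desaturase reads changed accordingly. Of the counts on the 6 transcripts, g9908 and g9912 together took 3.15% in normal replicate 1 (95% Wilson interval 2.02% to 4.86%), 6.01% in replicate 2 (4.49% to 7.99%) and 6.23% in replicate 3 (4.78% to 8.08%). In mixotrophic replicates 1, 2 and 3 they took 51.5% (49.4% to 53.7%), 46.4% (44.1% to 48.7%) and 48% (45.6% to 50.5%). The difference was 43.5 percentage points and the conditions did not overlap, which is a description with no test, since the pair was put together for its rise. The share of DESA1 alone in the counts of its component was 0.547%, 1.3% and 1.33% in normal and 16.9%, 14.1% and 15.1% in mixotrophic replicates 1, 2 and 3. For that share the exact permutation test, two-sided, gave p = 0.1, the smallest value that 3 against 3 libraries allow. As g9912 had the largest rise among the tested contigs of its gene in these same data, this test is no independent evidence. The intervals cover counting error only. Among the other 3 transcripts the proportions were stable, with g9907 at 55.8% to 58.5% of their sum in every library.

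**Figure D3:**
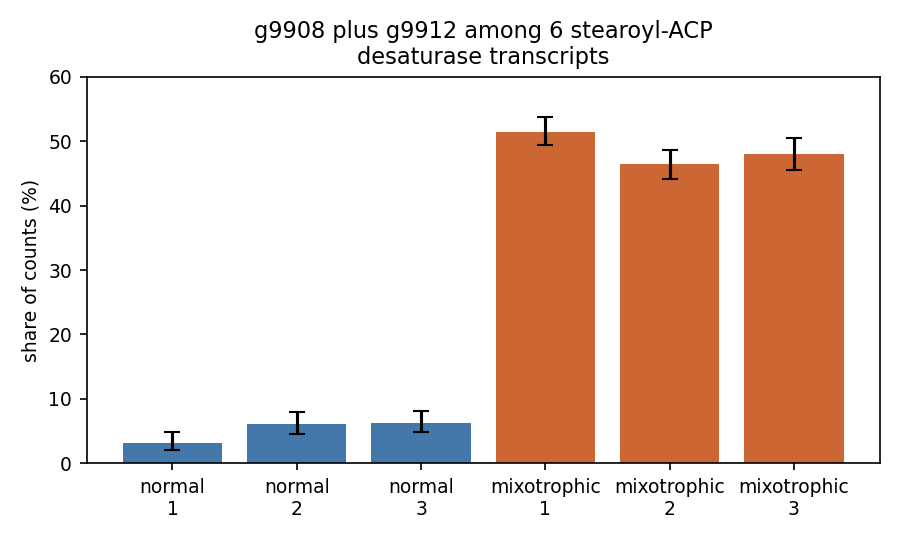
Share of the counts on 6 stearoyl-ACP desaturase transcripts that fell on g9908 and g9912 (y axis, percent, from 0) in each library (x axis). Bars are the share and lines its 95% Wilson interval, and the share is 3.15% to 6.23% in normal and 46.4% to 51.5% in mixotrophic libraries.

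Summed over the component, the response was much smaller than that of DESA1 alone. The 11 transcripts together had 454, 545 and 567 CPM in normal and 673, 675 and 683 CPM in mixotrophic replicates 1, 2 and 3, a log2 fold change of 0.31 (SE 0.12, edgeR adjusted p = 0.101 over 7724 components). Over replicates 2 and 3 it was 0.21 (edgeR adjusted p = 0.0016), and with upper quartile scaling 0.39 (adjusted p = 0.0425). In this sum g9906 had the most counts of a single transcript in every normal library, and it stood at 246 to 293 CPM in normal and 217 to 231 CPM in mixotrophic libraries without overlap. Its log2 fold change was -0.30 (edgeR adjusted p = 0.0862) over all 6 libraries, and it passed as lower by DESeq2 (-0.30, adjusted p = 0.0249), over replicates 2 and 3 (-0.27, adjusted p = 0.00261) and without normal replicate 1 (-0.30, adjusted p = 0.0247). Without g9906, the Trinity gene of the stearoyl-ACP desaturases had 167, 299 and 274 CPM in normal and 457, 444 and 459 CPM in mixotrophic libraries. Its log2 fold change was 0.82 (SE 0.24, edgeR adjusted p = 0.045), with 0.87 (SE 0.22, adjusted p = 0.0521) under the replicate block and 0.60 (adjusted p = 4.71e-08) over replicates 2 and 3.

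SCD (g6951) had 265, 226 and 197 CPM in normal and 409, 397 and 427 CPM in mixotrophic replicates 1, 2 and 3. The mean rose from 230 ± 34.1 to 411 ± 15.2 CPM (SD, n = 3 libraries), with 542 to 1897 reads behind each value. The log2 fold change was 0.84 (SE 0.13, edgeR adjusted p = 0.00737). The call held when any 1 library was left out, with log2 fold changes of 0.74 to 0.93 and a highest adjusted p of 0.0458 in edgeR. Its component holds 1 further transcript, g6952, which lies on the same contig and had no count. The summed component therefore has the counts of g6951 alone and was called too (0.79, edgeR adjusted p = 0.00595 over components).

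FAD2 (g6334) had 458, 324 and 280 CPM in normal and 644, 660 and 677 CPM in mixotrophic replicates 1, 2 and 3. The mean rose from 354 ± 92.5 CPM (SD, n = 3 libraries) to 660 CPM, and the normal libraries were more spread than the mixotrophic ones. Normal replicate 1 was the highest normal library. The log2 fold change was 0.90 (SE 0.19, edgeR adjusted p = 0.019) over all 6 libraries and 1.13 (SE 0.063, adjusted p = 2.57e-15) over replicates 2 and 3. The call over all 6 was the least firm of the 3, as it was lost in edgeR without normal replicate 2 (adjusted p = 0.0662) and without mixotrophic replicate 1 (adjusted p = 0.0604), 2 (adjusted p = 0.072) or 3 (adjusted p = 0.0787), at log2 fold changes of 0.84 to 0.91. FAD2 is the only transcript of its component.

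The size of the response was compared within libraries, as the log2 ratio of 2 desaturases' levels. The ratio of DESA1 to SCD was 3.33 higher on the log2 scale in mixotrophic than in normal cultures, at -1.98 ± 0.12 against -5.31 ± 0.99 (SD, n = 3). That of DESA1 to FAD2 was 3.25 higher, and in neither did the conditions overlap. The exact permutation test, two-sided, gave p = 0.1 for both, the smallest it allows, and p = 0.15 after adjustment over the 3 pairs. In these ratios DESA1 is the single contig g9912, which had the largest rise among the tested contigs of its gene. Its Trinity gene as a whole had a log2 fold change of 0.82, in a fit on sums per Trinity gene. SCD and FAD2 had 0.84 and 0.90 in the fit on single transcripts, and 0.79 and 0.85 in that on component sums. These values come from unlike fits, and their difference was not tested. No difference in response was detected between SCD and FAD2. Their log2 ratio was -0.60 ± 0.16 in normal and -0.68 ± 0.04 in mixotrophic libraries (SD, n = 3), a difference of -0.08 that lay within the spread of the normal libraries (exact permutation test, p = 0.4 and adjusted p = 0.4).

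Of 10 transcripts annotated for fatty acid desaturation by the original work, a list that was made on these samples and is no independent evidence of direction, 8 could be tested by edgeR, and 4 were higher and 0 lower. The 4 were the 3 desaturases g9912, g6951 and g6334 and the contig g9908, which may share reads with g9912. Among all tested transcripts 13.3% were higher and 15.2% lower. The median log2 fold change of the 8 was 0.62, beside -0.04 over all tested transcripts. The number lower was also 0 at an unadjusted p under 0.05 in edgeR, and 0 by DESeq2. Over replicates 2 and 3 the numbers were 5 higher and 1 lower of 9, beside 28.6% and 29% over all tested. The transcript added to the higher ones was the omega-3 desaturase g4534, called FAD8, and the lower one was g9914 (-0.32, adjusted p = 0.0117). The level of g4534 was 188, 287 and 236 CPM in normal and 307, 313 and 320 CPM in mixotrophic replicates 1, 2 and 3, with no overlap. Its log2 fold change was 0.40 (SE 0.16, edgeR adjusted p = 0.123) over all 6 libraries and 0.26 (adjusted p = 0.00323) over replicates 2 and 3. The transcript g867, also called SCD in that list, has no match in the deposited annotation. It had 0 to 12 reads per library, too few for a test over all 6 libraries.

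The BIN for fatty acid desaturation holds 9 transcripts, all tested. Over all 6 libraries 2 of them, SCD and FAD2, were higher and 0 lower by edgeR, beside 13.3% and 15.2% of all tested transcripts. The median log2 fold change of the 9 was -0.02. At an unadjusted p under 0.05 there was 1 lower transcript, the hydroxylase g6691, and by DESeq2 there were 0. The numbers were 4 higher and 1 lower over replicates 2 and 3, beside 28.6% and 29% over all tested. The plastid omega-6 desaturase g2565, which matches FAD6, had 1300, 924 and 911 CPM in normal and 962, 1090 and 1050 CPM in mixotrophic replicates 1, 2 and 3, so that normal replicate 1 was the highest of all 6. Its log2 fold change of -0.02 (edgeR adjusted p = 0.964) did not pass, and over replicates 2 and 3 it was 0.20 (adjusted p = 0.00146). The fatty acid hydroxylases g16188 and g6691 had -0.21 and -0.39 (edgeR adjusted p = 0.405 and 0.0842), and the latter was lower over replicates 2 and 3 (-0.58, adjusted p = 0.00198).

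Another 3 omega-6 desaturase transcripts, g5499, g5500 and g5501, belong to the 882 that were low in replicate 1 of both conditions. The best counted of them, g5499, had 1.38 and 1.51 CPM in normal and mixotrophic replicate 1, against 15.8 to 30.1 CPM in the other 4 libraries. The transcript g5500 had 0.829 and 0 CPM in replicate 1 against 7.39 to 12.9 CPM, and g5501 was not counted in replicate 1 and had 3.28 to 6.68 CPM elsewhere. The 882 were chosen for low levels in replicate 1, so this pattern is no separate result. They come from 18310 transcripts, and 3 of the 9 in this BIN are among them. The response of the 3 to the condition was not resolved over all 6 libraries, with log2 fold changes of 0.01, -0.15 and -0.13 (SE 1.2, 1.4 and 1.5). FAD2, in contrast, was counted well in all 6 libraries.

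A search of the descriptions for acyl desaturases found 5 transcripts. Of these 1, SCD, was higher and 0 lower over all 6 libraries by edgeR, beside 13.3% and 15.2% of all tested transcripts. The number lower was 0 also at an unadjusted p under 0.05 and by DESeq2. With replicates 2 and 3 alone, 2 were higher and 1 lower, beside 28.6% and 29% over all tested. The lower one was g4760. This transcript, which matches the plant enzyme that makes a trans double bond in the palmitate of phosphatidylglycerol, had 16, 157 and 149 CPM in normal and 66.5, 58.8 and 67.4 CPM in mixotrophic replicates 1, 2 and 3. Its log2 fold change was -0.73 (SE 0.74, edgeR adjusted p = 0.524) over all 6 libraries and -1.30 (adjusted p = 9.86e-13) over replicates 2 and 3, with normal replicate 1 below every mixotrophic library.

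**Figure D4:**
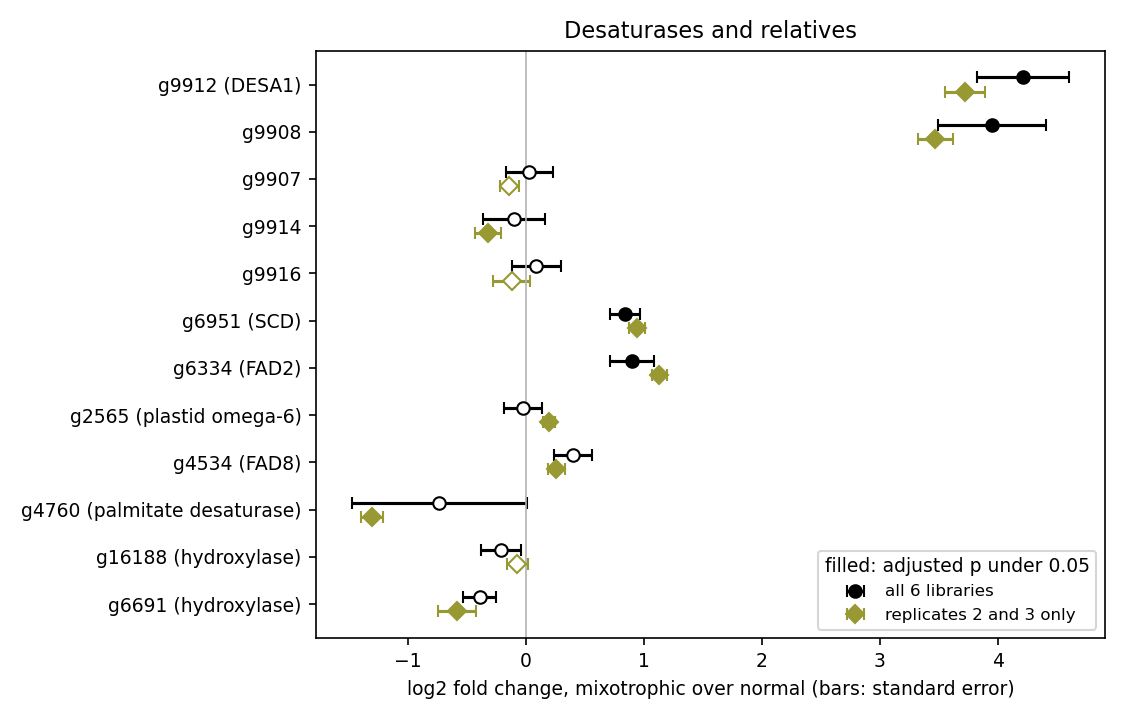
Log2 fold change of mixotrophic over normal with its standard error (x axis) for 12 desaturases and relatives (y axis), from all 6 libraries (circles) and from replicates 2 and 3 only (diamonds). Filled symbols have an edgeR adjusted p under 0.05: over all 6 libraries these are g9912 at 4.21, g9908 at 3.95, g6951 at 0.84 and g6334 at 0.90.

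Carriers that bring electrons to desaturases were found by BIN and by the words cytochrome b5. Among 21 such transcripts edgeR could test 9. The number higher was 3 and the number lower 0 (1 at an unadjusted p under 0.05, g194, and 0 by DESeq2), and the median log2 fold change was -0.01. Over all tested transcripts 13.3% were higher and 15.2% lower. All 3 belong to the cytochrome b5 system. Cytochrome b5 itself, g5615, had 22.4, 33.8 and 34.8 CPM in normal and 72.1, 70.9 and 67.7 CPM in mixotrophic replicates 1, 2 and 3 (1.21 ± 0.19 on the log2 scale, SE, edgeR adjusted p = 0.00742). The NADH:cytochrome b5 reductase transcripts g17974 and g17975 rose from 12.5 to 16.8 and 9.19 to 15.4 CPM in normal libraries to 30 to 32.3 and 28.1 to 32.4 CPM in mixotrophic ones. On the log2 scale they rose by 1.15 and 1.28 (adjusted p = 0.00555 and 0.00957 in edgeR). The call of g17975 was lost in edgeR without mixotrophic replicate 1 (1.20, adjusted p = 0.054) or 2 (1.27, adjusted p = 0.0521). Those of g5615 and g17974 held when any 1 library was left out. They belong to 1 component and their descriptions are alike, so they may share reads. A cytochrome b5-like protein, g371, had 0.79 (edgeR adjusted p = 0.134), and the proteins g193 and g194, which match membrane progesterone-binding proteins, had -0.70 and -0.71 (adjusted p = 0.152 and 0.0578). With replicates 2 and 3 alone these 3 passed too, at 1.09, -0.95 and -0.95, which gave 4 higher and 2 lower of 9, beside 28.6% higher and 29% lower over all tested.

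Of the plastid donor, 2 of 8 transcripts in the BINs of ferredoxin and its reductase were tested, and 4 were never counted. In edgeR 0 passed in either direction, and the number was 0 as well at an unadjusted p under 0.05 and by DESeq2. Over all tested transcripts 13.3% were higher and 15.2% lower, so with 2 tested the absence of calls says little about ferredoxin. The better counted one, g10752, is among the 882 low in replicate 1, with 0.276 and 0 CPM there against 32.5 to 50.5 CPM in the other libraries. The other one, g14956, had 4.19 to 6.69 CPM in the 6 libraries, with overlap between the conditions.

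Of 6 tested transcripts listed by annotation for the steps next to stearoyl-ACP, 1 was higher and 1 lower, beside 13.3% and 15.2% over all tested. The higher one, g1139, has a mitochondrial match, so its place beside the plastid stearoyl-ACP is not shown. The acyl-ACP thioesterase g6994, of the FatA type that releases oleate from ACP, had 285, 280 and 261 CPM in normal and 159, 180 and 172 CPM in mixotrophic replicates 1, 2 and 3. It fell with a log2 fold change of -0.69 (SE 0.099, edgeR adjusted p = 0.00557), and the conditions did not overlap. The acyl carrier protein g1139, which matches a mitochondrial form, had 123, 222 and 226 CPM in normal and 313, 351 and 361 CPM in mixotrophic libraries, and its log2 fold change of 0.84 was just past the threshold (edgeR adjusted p = 0.0499). That call was lost at nearly the same size with RLE scaling, without a filter and with robust estimation (0.83, 0.83 and 0.84). It was also lost without any 1 library other than normal replicate 1 (0.80 to 0.99, adjusted p = 0.0764 to 0.169), and without normal replicate 1 the value was 0.58 (adjusted p = 0.000787). The ketoacyl-ACP synthase g14611, which matches the enzyme that lengthens palmitate to stearate, overlapped between the conditions at 32.3 to 76.9 and 61.8 to 64.3 CPM (0.02, edgeR adjusted p = 0.977). The ketoacyl-ACP synthases g13471, g1456 and g1459 had log2 values of 0.42, 0.85 and 1.09 (adjusted p = 0.118, 0.0796 and 0.132 in edgeR), without overlap, and the latter pair comes from 1 component. Each passed as higher over replicates 2 and 3, at 0.25, 1.25 and 1.71 (adjusted p = 0.00323, 8.68e-06 and 2.4e-07 in edgeR). Each also passed without normal replicate 1, at 0.23, 1.21 and 1.76 (adjusted p = 0.012, 0.000707 and 0.000487). Over replicates 2 and 3 the numbers were 4 higher and 2 lower, beside 28.6% and 29% over all tested. The lower ones there included g14611 at -0.33 (adjusted p = 0.0107). Of the whole BIN for fatty acid synthesis and elongation, which includes DESA1, edgeR tested 67 of 91 transcripts, with 11 higher and 9 lower over all 6 libraries, near the shares of 13.3% and 15.2% over all tested transcripts, and with a median log2 fold change of -0.11. Replicates 2 and 3 alone gave 20 higher and 27 lower of 67, beside 28.6% and 29% over all tested.

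Transcripts with the most similar profile over the 6 libraries were taken by the root mean square difference of centred log2 levels, among transcripts outside the desaturase's own component with an assigned BIN whose log2 CPM averaged 3 or more. The component mate g9908 was therefore no candidate for DESA1. Of 4742 candidates, the nearest to DESA1 were g18274, a type II NADH dehydrogenase (difference 0.492), g11546, annotated as a plastid acetyl-CoA synthetase (0.541), and g15282, an amino acid transporter (0.596). The transcript g11546 had 60.5, 91 and 74.6 CPM in normal and 748, 754 and 765 CPM in mixotrophic libraries. The Pearson correlation over the 6 libraries was 0.973 to 0.989 for the 3 nearest to DESA1, and 0.992 to 0.999 for those of SCD and FAD2. Nearest to SCD, of 4746 candidates and with smaller differences, were g14833, a glycerol phosphatase (0.0414), g5574, the small subunit of rubisco (0.0516), and g8760, a coatomer subunit of vesicle transport (0.0592). Nearest to FAD2 were g4128, a phosphogluconate dehydrogenase of the pentose phosphate pathway (0.0423), and the glutamine-tRNA ligases g18057 (0.0437) and g18060 (0.0509). Each of the latter 3 shared the high value in normal replicate 1, as in g4128 with 266, 196 and 175 CPM in normal and 377, 384 and 390 CPM in mixotrophic replicates 1, 2 and 3. SCD and the 3 nearest to it likewise had their highest normal level in normal replicate 1.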

How the data were processed

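RNA-seq libraries of 3 normal and 3 mixotrophic cultures were analysed from the deposited table of read counts. According to the methods, the authors assembled reads of all samples with Trinity, predicted coding transcripts with AUGUSTUS, aligned reads to them with Subread and counted them with featureCounts at default settings. The submitters' processing notes name BWA and DESeq2. The counts were deposited unscaled, with 2535461 to 4444858 per library. Tables of the authors' own fold changes and enrichment were not used. Descriptions of 711 transcripts are removed in the copy used here, so keyword lists may miss members.

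For the fits, edgeR 4.0.16 in R 4.3.3 was applied to all 6 libraries with TMM scaling, the filterByExpr filter (minimum count 10), quasi-likelihood F-tests (two-sided) and Benjamini-Hochberg adjustment over every tested transcript, without a covariate. The code was checked on simulated counts. Calls required an adjusted p under 0.05, and the SE was taken as the size of the log2 change over the square root of F. Log2 levels used a prior count of 2. Trinity components were read from the contig names. Alternatives were replicates 2 and 3 only, the replicate number as a block, RLE and upper quartile scaling, DESeq2 1.42.0, other filters, robust estimation, leaving out each library, and 2 added after the data were seen (sums per Trinity gene, and leaving out the transcripts low in replicate 1).

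The methods describe a pre-culture divided between the conditions and experiments repeated independently, without saying which libraries shared one. Deviations of same-numbered libraries from their condition's mean correlated over tested transcripts, at 0.703, 0.625 and 0.544 for replicates 1, 2 and 3, so the numbers were treated as pairs in the alternative with the block. Replicates 2 and 3 also deviated together across numbers, at 0.683 and 0.514. The values thus set replicate 1 apart and cannot tell whether same-numbered replicates 2 and 3 form pairs. The members, lists and tests were chosen with earlier results of these data known. Named are the 3 desaturases, their components, the study's desaturation list, of each other list up to 2 called transcripts per direction with the smallest adjusted p (any transcript in lists of up to 8 tested), and the 3 most similar profiles for each desaturase. The transcripts g5499, g5500, g5501, g16188, g6691, g17975, g371, g193, g194, g10752 and g14956 fall outside that rule and were chosen after their values were seen.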

Additional observations from a re-analysis of the deposited data

How the results depend on the processing

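The spread over all 6 libraries came largely with normal replicate 1, and leaving out each library in turn gave 641 to 3476 transcripts higher and 668 to 3527 lower, the highest without that library. Over replicates 2 and 3 the numbers were 3549 and 3593, or 28.6% and 29% of the transcripts tested. With the replicate number as a block, FAD2 was at 0.93 (adjusted p = 0.0324), and among the results named here the block ended the calls of g14833 (adjusted p = 0.0562) and of the Trinity gene of DESA1 and no other. DESA1 had too few counts in normal replicate 1 for the filter of 10 counts in every library and has no value there. Leaving out each library gave log2 fold changes of 0.76 to 1.1 for FAD2 and 0.72 to 1.05 for its component. The component of DESA1 stood at 0.20 to 0.40 then, 0.21 over replicates 2 and 3, 0.39 with upper quartile scaling and 0.82 over the Trinity gene, an alternative chosen after seeing the data. Directions turned for g9907 (-0.14 over replicates 2 and 3, -0.20 to 0.17 without 1 library), g9914 (-0.38 to 0.11 without 1 library), g9916 (-0.12, and -0.13 to 0.22), g14611 (-0.33, and -0.32 to 0.21) and g2565 (0.20, and -0.11 to 0.14, with 0.00 under the block and 0.02 with upper quartile scaling). Counts over replicates 2 and 3, with the range without 1 library, were as follows. In the study's desaturation list 1 was lower (0 to 2), with 3 to 5 higher. In the desaturation BIN 4 were higher (1 to 3) and 1 lower (0 to 1). Among keyword desaturases 2 were higher and 1 lower (0 to 2), and 2 electron donors were lower (0 to 2). In the list for the steps beside stearoyl-ACP 4 were higher (0 to 4) and 2 lower (1 to 2). The number higher there was 0 with RLE scaling, without a filter and with robust estimation, and 2 with at least 10 counts in every library or without transcripts low in replicate 1, also chosen after seeing the data. In the synthesis BIN 20 were higher (9 to 21) and 27 lower (5 to 26). The cause of these shifts was not tested.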
